A study of Mus musculus with 6 samples.

Results

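Col4a1, Col4a2, Col4a3, Col4a4, Col4a5, Col4a6, Col15a1 and Col18a1 are the mouse genes for the type IV, XV and XVIII collagens. These 8 genes were taken by name, with earlier results of these data known, and 6 of them were among the 18810 genes of the deposited table. Col4a3 and Col4a4 were not in the table used here and are not described further by value. RNA was sequenced from dissected atrioventricular canal regions, which hold the mitral, tricuspid and aortic valves, of C57BL/6 mouse embryos at E15.5. There were 3 libraries from Scx-/- embryos, null for the transcription factor Scleraxis, and 3 from their Scx+/+ littermates. No other allele or treatment is named for either genotype. The tissue was not sorted, so a lower value can mean fewer cells of a type or less RNA per cell, and these cannot be told apart.

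Type IV collagens are the network-forming collagens of basement membranes, the thin sheets of matrix beneath endothelial and epithelial cells and around muscle cells. Chains of the type IV family wind into triple helices inside the cell, and the secreted helices join end to end into a sheet to which laminins, nidogens and perlecan are tied. The alpha 1 and alpha 2 chains, from Col4a1 and Col4a2, form the network present in almost every basement membrane, while the alpha 3 to alpha 6 chains have more restricted sites. Types XV and XVIII are heparan sulfate or chondroitin sulfate proteoglycans with interrupted collagen domains that lie at the edge of basement membranes, and the end of the type XVIII chain is released as endostatin. In the heart these proteins surround cardiomyocytes and underlie the endocardium, including the endocardium of valves.

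The type IV genes lie in head-to-head pairs. In mm9, Col4a1 (ENSMUSG00000031502) is on chromosome 8 from 11198423 to 11312826 on the minus strand, and Col4a2 (ENSMUSG00000031503) is on the same chromosome from 11312805 to 11449287 on the plus strand. Their first exons, both 5′ untranslated at this end, share 22 bases. Col4a4 and Col4a3 on chromosome 1 leave 71 bases between their starts, and on chromosome X the start of Col4a5 (137909928 to 138123778, plus strand) is 1309 bases from that of Col4a6 (137599946 to 137908619, minus strand). The 22 shared bases of the pair that the main result concerns, and for comparison the 71 bases between the other autosomal pair, are shown on the plus strand of mm9 with the letters GGGCGG, known as a GC box, in capitals.

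Col4a1/Col4a2 start, chr8:11312805-11312826: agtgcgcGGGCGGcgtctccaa

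Col4a4/Col4a3 gap, chr1:82583425-82583495: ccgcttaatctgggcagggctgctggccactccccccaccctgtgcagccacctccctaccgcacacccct

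In RefSeq promoter windows of GRCm38.p6, which run from 250 bases before to 50 bases after a start and were found for 7 of the 8 genes, 3 motifs were searched on both strands. The windows of Col4a1 and Col4a2 overlap by 78 bases and share 1 GGGCGG. Outside that overlap each of these windows also held 1 CCAAT box, the letters CCAAT. Of all 32851 promoter windows, 35.7% held a GC box and 37.4% a CCAAT box. The letters CANNTG, the E-box that basic helix-loop-helix proteins such as Scx bind, occurred in 72.3% of all windows. They were found once each in the windows of Col4a4, Col4a5 and Col15a1 and not in those of Col4a1, Col4a2, Col4a6 or Col18a1. These counts describe letters in short windows and say nothing of binding. The windows of Col4a1 and Col4a2 had a GC content of 74.0% and 73.7%, against a median of 52.7% over all windows.

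Libraries held 46429944 to 68571051 reads, as recovered from the deposited RPKM, which scales reads by exon length and library depth. Scx over the whole gene did not separate the genotypes, at 33.6, 18.6 and 82.9 RPKM in Scx-/- and 29.5, 58.3 and 25.97 RPKM in Scx+/+, so libraries are named here by their labels. The study checked the null embryos by expression of exon 1 of Scx, and the table has no value by exon, so the level over the whole gene does not check the labels. Scx-/- replicate 3 and Scx+/+ replicate 2 were the lowest libraries for Col18a1 and Col4a6, as given below. Summed RPKM of 10 cardiomyocyte markers was 24030 and 26440 in these libraries and 14690 to 19490 in the other 4. That sum was mostly Myl2, Tnnt2, Myh7 and Myh6, and the markers did not all move together. In Scx-/- replicate 3, Actn2 (247 RPKM) and Nppa (453.5 RPKM) were not high. In Scx+/+ replicate 2, Ttn was the lowest of all libraries at 92.4 RPKM. The mean log2 deviation of the 10 markers was 0.09 in Scx-/- replicate 3, 0.37 in Scx+/+ replicate 2 and -0.19 to -0.01 in the others. Scx+/+ replicate 2 was also the shallowest library, with 56.9% of its RPKM in the 10 most abundant genes (30.7% to 43.9% in the others), 2252 genes at the common low value of the table (1088 to 1465) and the lowest median Spearman correlation with the others (0.933, against 0.944 to 0.956). The summed level of 7 valve mesenchyme genes was 267 to 454 RPKM, most of it Postn (160.9 to 386.5 RPKM). That of 11 endothelial and endocardial genes was 146 to 182 RPKM. No level was set that these sums had to reach, and the cardiomyocyte sum was far higher, so they do not check the labelled tissue. By Xist and Y-linked genes, replicate 2 of either genotype was female and the others male.

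In all libraries, the chains of the widespread network dominated. Col4a1 had a mean of 41.4 RPKM over the 6 libraries and Col4a2 of 25.4 RPKM. Col4a5, which encodes the alpha 5 chain, followed at 17.1 RPKM, Col18a1 at 11.01 RPKM, Col4a6, for the alpha 6 chain, at 2.02 RPKM and Col15a1 at 1.83 RPKM. RPKM is scaled by exon length, so levels of different genes were set side by side. Their exon GC content, such as 50.9% in Col4a5 and 60.4% in Col4a2, was not corrected for in this order. Each of the first 4 steps of this order held in 6 of 6 libraries (exact paired permutation test, two-sided, p = 0.0312, or 0.039 after Benjamini-Hochberg adjustment over the 5 neighbouring pairs). That p is the smallest the test can give with 6 libraries, and the order tested was taken from the means of the same libraries. Col4a6 and Col15a1 could not be ordered, since Col4a6 was the higher in 4 of 6 libraries and the mean log2 difference was 0.0 with an SD of 0.83 (exact p = 1.0). Both had 280 to 1603 reads per library, while Col4a1 had 12754 to 20820.

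**Figure D1:**
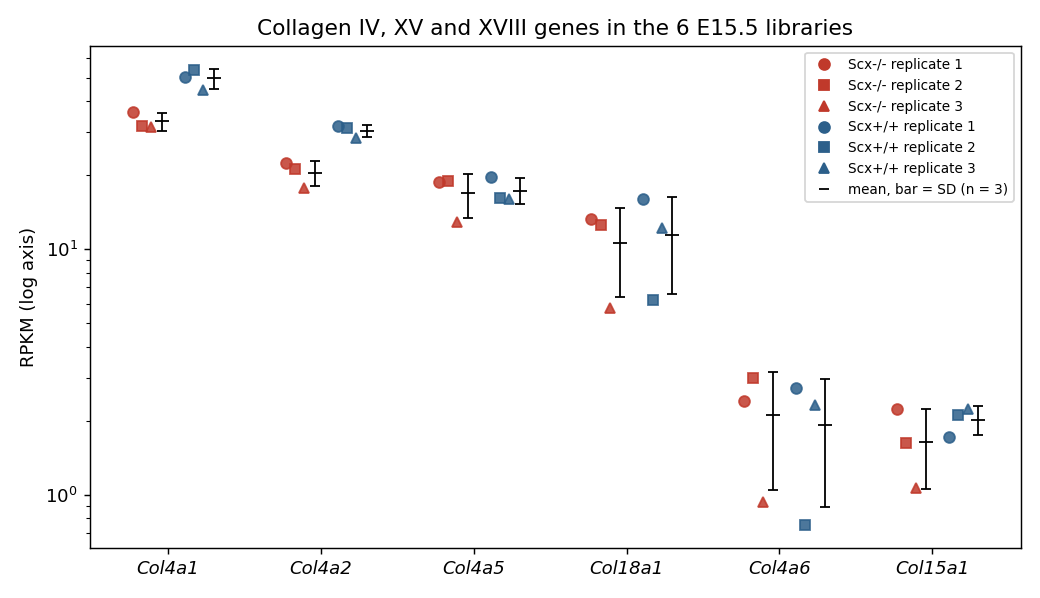
RPKM on a log axis of the 6 collagen genes in each library, with the mean and SD of the 3 libraries of each genotype. Col4a1 and Col4a2 were lower in every Scx-/- library than in any Scx+/+ library, and the genotypes of the other 4 genes overlapped.

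Col4a1 and Col4a2 were the members that were lower in Scx-/- atrioventricular canal regions. Col4a1 was 36.4, 31.9 and 31.3 RPKM in Scx-/- replicates 1 to 3 and 50.5, 53.8 and 44.5 RPKM in Scx+/+ replicates 1 to 3. Its highest Scx-/- value therefore lay below its lowest Scx+/+ value. Col4a2 was 22.5, 21.2 and 17.8 RPKM in Scx-/- and 31.6, 31.1 and 28.3 RPKM in Scx+/+, again without overlap. The genotypes were compared on log2(RPKM + 0.1) with limma, a linear model whose variances are pooled over all genes. The log2 fold change of Col4a1 was -0.58 (95% confidence interval -0.94 to -0.22), or 0.67 of the level in Scx+/+. That of Col4a2 was -0.57 (95% confidence interval -0.94 to -0.20), or 0.68 of the level in Scx+/+. Both were called at an unadjusted p below 0.05 (0.00552 and 0.00726 from limma), the threshold of the study, and neither after adjustment over all genes (adjusted p = 0.967 from limma for each).

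Of the 6 genes in the table, 2 were thus called lower, against 1.06% of all 18810 genes, and 0 were called higher, against 2.82% of all genes. At an adjusted p below 0.05 limma called 0% of all genes and 0 of the 6, while 731 of all genes passed unadjusted. Genes with every Scx-/- library below every Scx+/+ library made up 2.31% of the table and 2 of the 6. An exact permutation test of 3 libraries against 3 gave p = 0.1 for Col4a1 and for Col4a2, which is the smallest it can give. Among the 3216 genes averaging 20 RPKM or more, the fold changes of Col4a1 and Col4a2 ranked 48 and 50 from the lowest.

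The whole table leaned the other way, with a median log2 fold change of 0.11, and 531 genes were called higher and 200 lower. When the median of each library was set to 0, 281 were called higher and 365 lower, and the log2 fold change of Col4a1 was -0.69 and that of Col4a2 -0.68. They were then still the called genes of the 6, where 1.94% of all genes were called lower. Without Scx-/- replicate 3 and Scx+/+ replicate 2 the same 2 were called, with log2 fold changes of -0.48 and -0.45, and 2.38% of all genes were called lower. Among the 4 libraries of male embryos alone the log2 fold changes were -0.49 and -0.58, and in the 1 female pair they were -0.75 and -0.55.

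**Figure D2:**
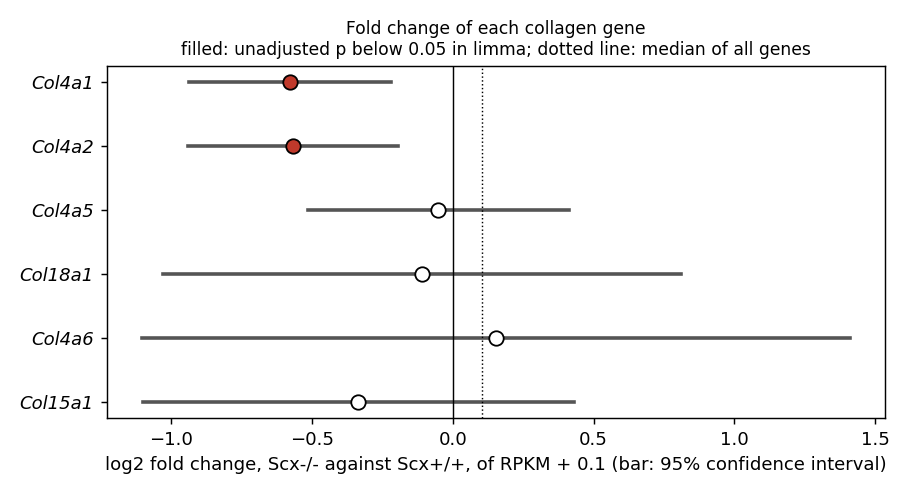
Log2 fold change of Scx-/- against Scx+/+ with its 95% confidence interval from limma for the 6 collagen genes, ordered by level. The intervals of Col4a1 and Col4a2 lie below 0 and those of the other 4 genes include 0.

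The ratio between these neighbouring genes was nearly the same in every library. Col4a1 RPKM was 1.61, 1.503 and 1.76 times that of Col4a2 in Scx-/- and 1.595, 1.73 and 1.57 times in Scx+/+. The mean log2 ratio of the 3 Scx-/- libraries was 0.70 (SD 0.11) and that of the 3 Scx+/+ libraries 0.71 (SD 0.08), a difference of -0.01 that was less than the spread between libraries (exact permutation test, two-sided, p = 1.0). Among 13826 genes averaging 1 RPKM or more, Col4a2 had the profile nearest to that of Col4a1 over the 6 libraries, at a root mean square distance of 0.079 between log2 values centred on each gene's mean. Their exons share 22 bases, 0.32% of the exon length of Col4a1, and an antisense transcript, Gm15419, covers a further 43 bases (0.65%) of the exons of Col4a2. The strand of the counting is not given in the sources used here, so reads in those bases cannot be assigned.

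The 8 other genes nearest to the mean profile of Col4a1 and Col4a2 were Stk10, Rbm15b, 4930533K18Rik, Irf2, Hsph1, Gm6823, Eif4e3 and Smndc1, at distances of 0.048 to 0.104. They were among 13825 genes and were picked by this likeness, so their fold changes are no evidence of their own. None is a collagen or another gene of the lists below. Stk10, a serine/threonine kinase, was 1.01, 0.921 and 0.8004 RPKM in Scx-/- and 1.503, 1.37 and 1.26 RPKM in Scx+/+. Hsph1, a heat shock chaperone, was 2.40, 2.06 and 2.21 RPKM in Scx-/- and 3.38, 3.70 and 3.45 RPKM in Scx+/+. In both genes every Scx-/- library lay below every Scx+/+ library, at a far lower level. Col15a1 and Col4a5 ranked 1002 and 1251 in this likeness, and Col18a1 and Col4a6 ranked 11034 and 12754.

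**Figure D3:**
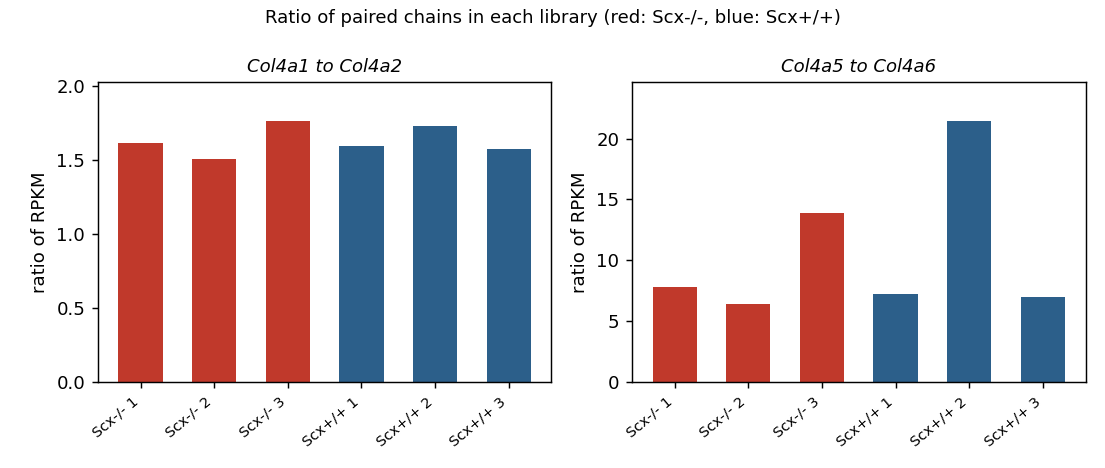
Ratio of RPKM between the paired chains in each library, with Scx-/- in red and Scx+/+ in blue. Col4a1 to Col4a2 stayed between 1.503 and 1.76, while Col4a5 to Col4a6 ran from 6.36 to 21.4 with Scx-/- replicate 3 and Scx+/+ replicate 2 highest.

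The X-linked chains overlapped between genotypes and were not called. Col4a5 was 18.7, 19.0 and 12.9 RPKM in Scx-/- and 19.8, 16.1 and 16.1 RPKM in Scx+/+. The log2 fold change was -0.05 (95% confidence interval -0.51 to 0.41, adjusted p = 0.991 from limma). Col4a6 was 2.40, 2.99 and 0.933 RPKM in Scx-/- and 2.73, 0.754 and 2.31 RPKM in Scx+/+, with 1 low library in each genotype. Its log2 fold change of 0.15 had a 95% confidence interval from -1.10 to 1.41 (adjusted p = 0.990 from limma), so that changes as large as those of Col4a1 were not detectable for this gene. In males alone the log2 fold changes of Col4a5 and Col4a6 were -0.195 and -0.70, and in the female pair they were 0.235 and 1.86. That pair holds Scx+/+ replicate 2, the low Scx+/+ library of Col4a6, so sex and that library cannot be told apart. The ratio of Col4a5 to Col4a6 was 13.8 in Scx-/- replicate 3 and 21.4 in Scx+/+ replicate 2, and 6.36 to 7.79 in the other libraries.

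Relative to Col4a5 in the same library, Col4a1 was 1.94, 1.68 and 2.42 times as abundant in Scx-/- and 2.56, 3.33 and 2.77 times in Scx+/+. These ratios did not overlap between genotypes. The difference was -0.53 on the log2 scale (exact permutation test, two-sided, p = 0.1, the smallest possible). Relative to Col18a1 the ratios of Col4a1 did overlap, at 2.74, 2.53 and 5.42 in Scx-/- and 3.165, 8.635 and 3.64 in Scx+/+ (exact permutation test, two-sided, p = 0.5). Neither ratio was among the head-to-head pairs chosen for testing. Both contain the change of Col4a1 given above and are no separate evidence of it. Col4a1 and Col4a2 together made up 73.6%, 70.7% and 78.0% of the summed RPKM of the 4 listed type IV genes in Scx-/- and 78.5%, 83.4% and 79.9% in Scx+/+. That sum averaged 72.7 RPKM over the 3 Scx-/- libraries (SD 8.78) and 99.2 RPKM over the 3 Scx+/+ libraries (SD 7.08).

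The proteoglycan collagens were not called, and their genotypes overlapped. Col18a1 (ENSMUSG00000001435, chromosome 10 from 76514923 to 76629293 on the minus strand) was 13.3, 12.6 and 5.78 RPKM in Scx-/- and 15.9, 6.23 and 12.2 RPKM in Scx+/+. It was thus low in Scx-/- replicate 3 and Scx+/+ replicate 2, as Col4a6 was, and 12.2 to 15.9 RPKM in the other 4 libraries. The log2 fold change was -0.11 (95% confidence interval -1.03 to 0.81, adjusted p = 0.991 from limma). RefSeq gives this gene a pair of start sites, and the RPKM of the whole gene does not separate its long and short forms. Col15a1 (ENSMUSG00000028339, chromosome 4 from 47221033 to 47326039 on the plus strand) was 2.24, 1.62 and 1.06 RPKM in Scx-/- and 1.72, 2.10 and 2.24 RPKM in Scx+/+. Its lowest library was Scx-/- replicate 3, but Scx+/+ replicate 2 was not low. The log2 fold change was -0.34 (95% confidence interval -1.10 to 0.43, adjusted p = 0.967 from limma).

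Between its highest and lowest library Col4a6 ranged over 3.97-fold and Col18a1 over 2.76-fold, against 1.72-fold for Col4a1 and 1.78-fold for Col4a2. The profile of Col4a6 was at a distance of 0.252 from that of Col18a1, rank 250 among 13826 genes, and that of Col4a1 at 0.612, rank 7429. The 2 libraries in which Col18a1 and Col4a6 were lowest are those with the highest summed cardiomyocyte markers (24030 and 26440 RPKM). That sum rests on the most abundant markers, and other markers of the list were not high in both libraries. The summed level of 6 epicardial genes was 21.6 and 17.5 RPKM in these 2 libraries and 24.1 to 32.8 RPKM in the other 4. The part of these, or of the depth and composition of Scx+/+ replicate 2, in the values of Col18a1 and Col4a6 was not tested. Without these libraries the log2 fold changes of Col18a1 and Col4a6 were -0.11 and 0.09. Scx was also highest in these 2 libraries (82.9 and 58.3 RPKM).

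**Figure D4:**
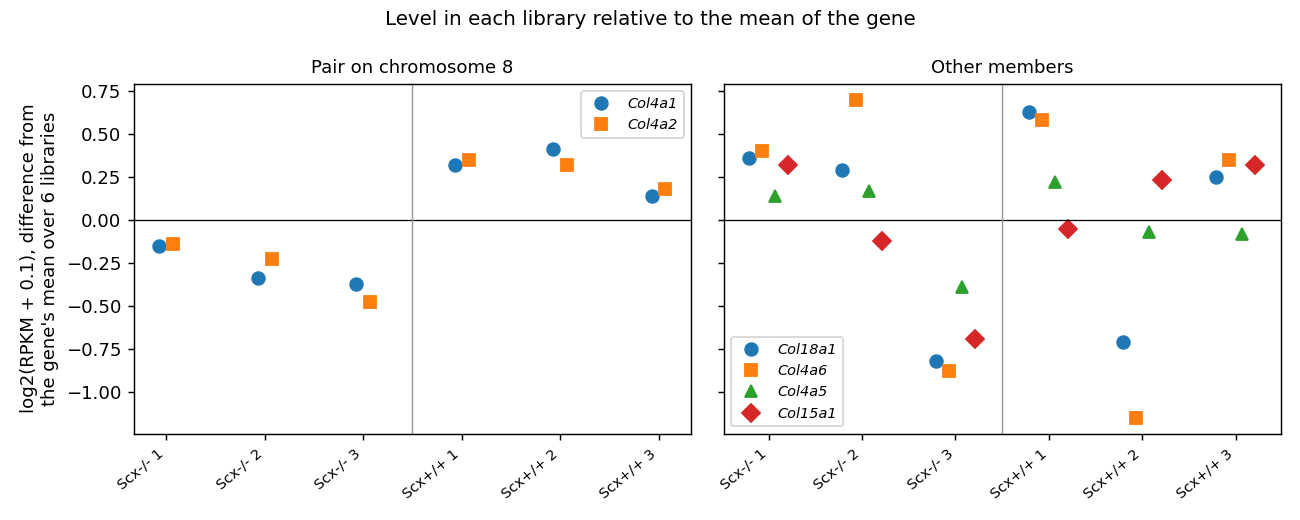
Difference of log2(RPKM + 0.1) in each library from the mean of the gene over the 6 libraries, for Col4a1 and Col4a2 (left) and the other 4 genes (right). Col4a1 and Col4a2 step down in all 3 Scx-/- libraries, while Col18a1 and Col4a6 are lowest in Scx-/- replicate 3 and Scx+/+ replicate 2.

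Endothelial cells are a main source of type IV collagen, and their markers are given beside Col4a1 and Col4a2. Of the 11 endothelial and endocardial genes, 0 were called in either direction, and their median log2 fold change was 0.00. Their summed RPKM was 146 to 182 in Scx-/- and 149 to 173 in Scx+/+. With the median of each library set to 0, 2 of the 11 were called lower, where 1.94% of all genes were. These were Kdr, the receptor for vascular endothelial growth factor, at a log2 fold change of -0.44 and Cdh5, the endothelial cadherin, at -0.51. Both were also called lower with quantile normalization (-0.46 and -0.52) and without Scx-/- replicate 1 (-0.50 and -0.63). In that last fit the median of the 11 was -0.23. Cdh5 alone was also called after correction for exon length and GC (-0.48). Among 8 mural and smooth muscle genes 0 were called, the median log2 fold change was 0.20, and the sum was 518 to 698 RPKM in Scx-/- and 469 to 567 RPKM in Scx+/+. With all libraries as deposited, 1.06% of all genes were called lower and 2.82% higher, and the counts that follow are from that fit. Among the 10 cardiomyocyte genes 1 was called lower, the calcium release channel gene Ryr2, with a log2 fold change of -0.46. Among the 6 epicardial genes 1 was called higher, Upk1b, a uroplakin of the mesothelium, with a log2 fold change of 0.61. Among the 7 valve mesenchyme genes 1 was called lower, Snai2, a transcription factor of epithelial to mesenchymal transition, with a log2 fold change of -0.80. Among the 6 macrophage genes 1 was called higher, Cd68, with a log2 fold change of 1.48 at 0.095 to 1.54 RPKM. The lowest Cd68 value, in Scx+/+ replicate 2, is the common low value of the table, and the log2 fold change was 0.60 with a pseudocount of 1, 1.82 with one of 0.01 and 0.68 in males alone. None of the 4 erythroid and 2 Schwann cell genes listed was called. With 1 library left out in turn, Ryr2, Upk1b and Snai2 were each still called in 2 of 6 fits and Cd68 in 3 of 6, and the part of these cell types in the values of Col4a1 and Col4a2 was not tested.

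Of 19 listed partners in the basement membrane, 17 had a log2 fold change below 0, where 36.2% of all genes did. Their median was -0.22, against 0.11 over all genes, but it was -0.05 without Scx-/- replicate 3 and -0.47 without Scx+/+ replicate 2. On average the partners deviated from their own means by 0.07, -0.04 and -0.43 (log2) in Scx-/- and by 0.33, -0.28 and 0.35 in Scx+/+, so 1 library of each genotype was low and the genotypes overlapped. The list's summed level overlapped, at 358 to 540 RPKM in Scx-/- and 458 to 515 RPKM in Scx+/+. By limma, 2 of the 19 were called lower and 0 higher, where 1.06% and 2.82% of all genes were. Perlecan (Hspg2), the heparan sulfate proteoglycan that links the laminin and collagen networks, was 2.26, 1.94 and 2.29 RPKM in Scx-/- and 3.43, 3.09 and 5.22 RPKM in Scx+/+. Its log2 fold change was -0.79, and it was not called without Scx-/- replicate 2 (-0.72), without Scx+/+ replicate 3 (-0.57) or after correction for exon length and GC (-0.58). Smoc1, a secreted calcium-binding protein of basement membranes, was 0.590, 0.722 and 0.541 RPKM in Scx-/- and 1.23, 1.10 and 1.38 RPKM in Scx+/+. Its log2 fold change was -0.90, and it was called with each library left out but not with the replicate number as a block (-0.90).

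The laminin chains and nidogens were not called with all libraries as deposited. Lamc1, the gamma chain of most laminins, had a log2 fold change of -0.44 and ran from 18.6 to 34.4 RPKM in Scx-/- and 26.01 to 41.1 RPKM in Scx+/+. Nid1, which joins laminin to type IV collagen, was 18.6, 20.4 and 14.7 RPKM in Scx-/- and 25.9, 18.4 and 25.9 RPKM in Scx+/+. In both genes Scx+/+ replicate 2 lay within the Scx-/- range, where Col4a1 and Col4a2 of that library did not. Nid1 was called lower with the median of each library set to 0 (-0.49), and both it (-0.42) and Lamc1 (-0.41) after correction for exon length and GC. Without Scx+/+ replicate 2, 5 of the 19 were called lower, where 2.49% of all genes were, with Nid1 (-0.55), Lamc1 (-0.65) and the proteoglycan Agrn (-0.96) joining Hspg2 and Smoc1. Without Scx-/- replicate 3 as well, 4 of the 19 were called lower, where 2.38% of all genes were.

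Genes that make, bind or cut the collagen chains were read from 3 lists. Of 23 listed genes of chain modification, folding, secretion and crosslinking, 0 were called and 9 had a log2 fold change below 0, with a median of 0.02. Among them, the collagen chaperone gene Serpinh1 was 158, 137 and 115 RPKM in Scx-/- and 132, 121 and 107 RPKM in Scx+/+. Pxdn, the peroxidase that crosslinks type IV collagen, was 13.2, 13.3 and 8.38 RPKM in Scx-/- and 16.8, 8.30 and 17.8 RPKM in Scx+/+. It was low in the same 2 libraries as Col18a1, without which it was called lower (-0.38). Of 12 proteases and inhibitors 0 were called, with a median log2 fold change of 0.15, which was 0.04 once the median of each library was set to 0. Without Scx-/- replicate 3 and Scx+/+ replicate 2, 3 of the 23 and 3 of the 12 were called higher, where 6.06% of all genes were.

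Of 13 receptors 1 was called lower, where 1.06% of all genes were. Of the 13, 10 had a log2 fold change below 0, where 36.2% of all genes did, and the median was -0.12. With the median of each library set to 0, 2 of the 13 were called lower, where 1.94% of all genes were. The gene added in that fit was Kdr (-0.44), which is also counted among the endothelial genes above. The glypican Gpc4, a cell surface heparan sulfate proteoglycan, was 2.23, 2.07 and 1.58 RPKM in Scx-/- and 2.76, 4.12 and 4.50 RPKM in Scx+/+. Its log2 fold change was -0.90, and it was not called without Scx+/+ replicate 3 (-0.77), in males alone (-0.88) or without both Scx-/- replicate 3 and Scx+/+ replicate 2 (-0.69). The integrin chains of collagen receptors, Itga1 and Itgb1, were not called and overlapped between genotypes. Itga1 was 12.6 to 18.9 RPKM in Scx-/- and 15.2 to 20.5 RPKM in Scx+/+. The part of these partners in the levels of Col4a1 and Col4a2 was not tested.

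The fibrillar collagens, the fibre-forming family of the valve stroma, were compared as the nearest other collagen group. None of the 8 listed was called, 6 had a log2 fold change below 0, and the median was -0.10. Col3a1, the most abundant, was 119, 154 and 100 RPKM in Scx-/- and 130, 117 and 129 RPKM in Scx+/+. Col1a1 was 7.34, 8.09 and 7.70 RPKM in Scx-/- and 9.91, 8.36 and 15.8 RPKM in Scx+/+, without overlap, and its log2 fold change was -0.50. Without Scx+/+ replicate 2, Col1a1 (-0.69) and Col5a1 (-0.51) were called lower, in the fit that called 2.49% of all genes lower. A difference between the families was not tested.

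**Figure D5:**
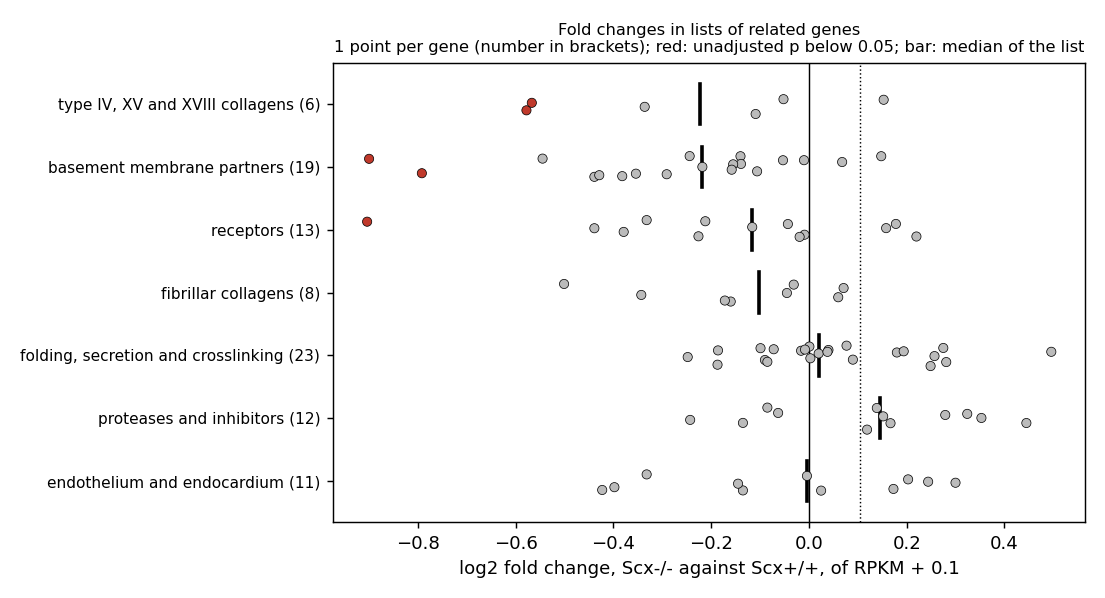
Log2 fold change of each gene in the collagen IV, XV and XVIII genes and in 6 lists of related genes, with the list's median as a bar, the median of all genes as a dotted line and called genes in red. Col4a1, Col4a2, Hspg2, Smoc1 and Gpc4 are the red points, and the basement membrane partners lie mostly to the left of 0.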

How the data were processed

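The authors aligned reads to mm9 with TopHat 1.4.1 (named in the submitters' processing notes), counted reads in Ensembl exons with easyRNASeq, and deposited RPKM for 18810 genes in 6 libraries. By their methods, genes with few reads in every library were dropped and low values replaced by a common value, 0.0949 RPKM in the table. No listed member was at it. Gene symbols came from the GENCODE annotation of mm9 (18695 identifiers matched). Depth was solved from RPKM and exon length, and 98.45% to 98.56% of values under 1000 reads then lay within 0.1 of a whole read. Depth sets counting error only.

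Genotypes were compared on log2(RPKM + 0.1) with limma 3.58.1 (R 4.3.3), whose prior variance followed mean intensity, and p-values were adjusted by Benjamini-Hochberg across the 18810 genes. The study used a one-way test at an unadjusted p below 0.05, so genes were called at that threshold. Ratios were tested with exact permutation tests (scipy 1.17.1). Python 3.11.15, numpy 2.4.6, pandas 2.3.3 and matplotlib 3.10.9 did the rest, and the fit was tested on simulated data. Nothing says that the 3 libraries of a genotype came from separate litters, so p-values measure the spread between these libraries.

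The members, gene lists and tests were chosen with earlier results of these data known. Named are the 8 members, the genes of the lists at an unadjusted p below 0.05, the 8 genes nearest in profile, and Scx. The laminin, nidogen, Serpinh1, Pxdn, Itga1, Itgb1, Kdr, Cdh5 and fibrillar collagen genes given as examples, and Agrn, were chosen after their values were seen. So were Postn and the cardiomyocyte genes named singly other than Ryr2. Alternatives were pseudocounts of 0.01 and 1, only genes averaging 1 RPKM or more, centring, quantile normalization, no trend, an ordinary linear model, the replicate number, sex, the length and GC trend (splines, 5 degrees of freedom each), and each library left out. Males alone, and the 4 libraries without Scx-/- replicate 3 and Scx+/+ replicate 2, were chosen after seeing the data. Proteins and isoforms were not analysed here.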

Additional observations from a re-analysis of the deposited data

How the results depend on the processing

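Col4a1 and Col4a2 kept their direction and an unadjusted p below 0.05 in all 18 alternatives (17 of limma and an ordinary linear model), at log2 fold changes of -0.69 to -0.48 and -0.69 to -0.45, and their adjusted p ran from 0.532 to 1.0. No other member was called in any of the 18. Col15a1 stayed below 0 in all of them, at -0.58 to -0.04, and was -0.07 without Scx-/- replicate 3. Col18a1 changed sign without Scx-/- replicate 3 (0.27) and without Scx+/+ replicate 1 (0.18), with a range of -0.49 to 0.27 over the fits that left out a library. Col4a5 ranged from -0.15 to 0.13 over those fits and was 0.082 without both Scx-/- replicate 3 and Scx+/+ replicate 2. Col4a6 ranged from -0.38 to 0.63 and was -0.70 in males alone. The cause was not tested. The count of all genes called, 731, ranged from 539 to 1549 with a library left out, the highest without Scx+/+ replicate 2, and was 1704 in males alone and 1587 in the 4 libraries without Scx-/- replicate 3 and Scx+/+ replicate 2. Same-numbered libraries did not deviate together (correlations of 0.09, -0.22 and -0.19, and 1 of 6 libraries correlated best with its own number), so the number was not taken as a pairing. With the replicate number as a block, 573 genes and the same 2 members were called, with log2 fold changes of -0.58 and -0.57. An ordinary linear model gave 1 gene at an adjusted p below 0.05 and the other alternatives 0. Col4a6, with 280 reads in its lowest library, ranged most between libraries (3.97-fold) and had the widest interval of the 6. Width did not follow reads, since Col18a1, with 2032 to 6722 reads, had a wider interval than Col15a1, with 402 to 976.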
